A study of Mus musculus with 6 samples.

Results

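Resident macrophages are long-lived tissue macrophages that sit in the outer layer of the artery wall. They take up dying cells and haemoglobin complexes and keep their numbers partly by division in place. The 3 surface receptors that mark them here have separate tasks: Cd163 takes up haemoglobin bound to haptoglobin, Folr2 binds folate, and Lyve1 binds hyaluronan, a sugar polymer of the vessel matrix. A second axis on which such macrophages differ is MHC class II, the set of molecules that presents peptides to helper T cells, and macrophages that descend from recent blood monocytes commonly carry more of it.

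The cells came from dissociated mouse aortic tissue measured with 10x Genomics droplets, in which each transcript is counted as a unique molecular identifier (UMI). The samples were 3 from Best3FL/FL mice, whose Best3 gene carries floxed alleles, and 3 labelled Best3SMKO. Best3 encodes bestrophin 3, a chloride channel protein. The labels used here name no promoter or Cre for the deletion, no age and no pooling of animals. The authors deposited 1 combined matrix whose 6 barcode suffixes match no sample label. Libraries are therefore numbered 1 to 6 after their suffix, none is assigned to a genotype, the matrix counts as 1 sample, and no test between groups or classes was made.

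Of 60871 barcodes, 53983 were kept, with 500 or more genes detected and no more than 20% of UMIs from mitochondria. Of these, 2554 were taken as resident macrophages. They were selected on measured values: at least 10 UMIs of C1qa, C1qb and C1qc together, at least 4 UMIs of Cd163, Folr2 and Lyve1 together, under 1.5% of UMIs from the smooth muscle genes Acta2, Tagln, Myh11 and Cnn1, and at most 1 UMI of Pdgfra and Pecam1 together. Libraries 1 to 6 held 425, 401, 283, 644, 552 and 249 of them. Levels are given as CPM, the UMIs of a gene per 1000000 UMIs summed over the cells of a class.

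Library totals ran from 51813179 to 96144873 UMIs. The selected cells had a median of 5511.5 UMIs and 2268.5 genes, from 3494 UMIs in library 5 to 7206 in library 4. Library 5 stood apart in several ways: Scrublet, a doublet caller, called 40 of its 552 selected cells doublets (73 of 2554 in all), and it held transcripts of airway secretory cells in every class of cells examined. Scgb1a1, a secretory protein of the airway lining, stood at 237 CPM in its resident macrophages, 1031 CPM in its C1q cells low in resident markers and 352 CPM in its Pdgfra-positive cells, and at 0 UMIs in the resident macrophages of the other libraries. In libraries 1, 3 and 4, 112, 70 and 345 resident macrophages had Xist UMIs and no Y-linked UMI, while 200, 121 and 171 had Y-linked UMIs and no Xist. Of the barcode sequences in the matrix, 414 occurred in more than 1 library, and no sequence was a resident macrophage in more than 1. Where leaving out library 5 ended a call whose values are printed, or moved its ratio by over 1.5 times, the value without it is given.

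Resident macrophages made up 4.73% of kept barcodes (exact 95% binomial interval 4.55 to 4.91; intervals here cover counting error only). The share was lowest in library 5 at 3.52% and highest in library 4 at 6.83%. Among the 3338 cells that met every condition except the one on Cd163, Folr2 and Lyve1, called C1q-positive cells, 76.5% (75.0 to 77.9) were resident macrophages. In libraries 1, 2, 3, 4 and 6 this share was 85.3%, 82.5%, 82.3%, 86.0% and 77.8%. Library 5 lay below all of them at 58.7%, and without it the share was 83.5%. The remaining C1q-positive cells were 563 with at most 1 UMI of the 3 receptors, called C1q cells low in resident markers, and 221 with 2 or 3 UMIs. Library 5 held 294 of the 563. No test of these shares between genotypes was possible.

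For F13a1 and Pf4, the values at the threshold show a slope and not a gap. The 128 C1q-positive cells with 3 UMIs of the 3 receptors, just outside, had F13a1 at 1028 CPM and Pf4 at 2178 CPM, and the 117 cells with 4 UMIs, just inside, had 1232 and 2556 CPM. Ccr2 and summed MHC class II (H2-Aa, H2-Ab1, H2-Eb1 and Cd74) did not fall at this step. They stood at 72.5 and 23269 CPM in the cells with 3 UMIs and at 181 and 29676 CPM in those with 4. Both groups were shallow, with median depths of 3131.5 and 2684 UMIs. At the other threshold, 13 cells had 9 UMIs of C1q and 15 had 10.

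The genes that chose the cells are given as a description. C1qa, C1qb and C1qc encode the chains of the first complement component and lie together at chr4:136895917-136898803, chr4:136880129-136886187 and chr4:136889804-136893065 on the minus strand of GRCm38. C1qa stood at 5302 CPM (exact 95% Poisson interval 5265 to 5339), with 4954, 4658, 6157, 5887, 5043 and 4654 CPM in libraries 1 to 6. C1qb and C1qc stood at 4843 and 3358 CPM and varied less, from 4650 to 5262 and from 3135 to 3564 CPM between libraries. C1qa was highest in libraries 3 and 4.

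Cd163 (chr6:124304656-124330527, plus strand) stood at 1481 CPM (1462 to 1501), with 1806, 1809, 1260, 1488, 1193 and 1114 CPM in libraries 1 to 6. Folr2 (chr7:101839988-101857194, minus strand) stood at 867 CPM (852 to 882), with 873, 748, 907, 958, 861 and 731 CPM. Lyve1 (chr7:110850607-110863239, minus strand) stood at 1471 CPM (1452 to 1491), with 1819, 1383, 1187, 1936, 885 and 836 CPM. Folr2 was the most even of the 3 and Lyve1 the least, with libraries 5 and 6 lowest for Lyve1. In cells thinned to 3000 UMIs, which left 2118 of the resident macrophages and dropped 436 shallower ones, UMIs of Cd163, Folr2 and Lyve1 were found in 83.7%, 80.6% and 82.5% of cells. In Pdgfra-positive cells, fibroblasts taken as the background of free RNA, the thinned shares were 1.69%, 1.55% and 2.40% of 6053 cells; before thinning the shares were 87.9%, 88.0% and 86.9% in resident macrophages, at a median of 5511.5 UMIs, and 4.06%, 4.03% and 6.83% in Pdgfra-positive cells, at 8878 UMIs.

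F13a1 and Pf4 also mark these cells but were not used to choose them. F13a1 encodes the catalytic subunit of coagulation factor XIII (chr13:36867178-37050244, minus strand) and Pf4 the chemokine platelet factor 4 (chr5:90772435-90773383, plus strand). F13a1 stood at 2770, 2630, 1960, 2685, 1893 and 1900 CPM in the resident macrophages of libraries 1 to 6, and at 731, 132, 450, 773, 225 and 494 CPM in the C1q cells low in resident markers. Pf4 stood at 3523, 3370, 3993, 3117, 2800 and 4396 CPM against 1156, 709, 1253, 588, 549 and 1769 CPM. For both genes the lowest library of the resident macrophages lay above the highest of the other class. Both rose with the 3 receptors over C1q-positive cells (Spearman's rho 0.68 and 0.40, given below), so this separation gives no independent support. After thinning, a UMI of F13a1 was present in 96.7% of resident macrophages, 37.7% of C1q cells low in resident markers and 2.56% of Pdgfra-positive cells.

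Best3, the gene deleted in the study, gave 0 UMIs in the 2554 resident macrophages, which, counting 3 over the total as the limit, allows a share of up to 0.117% of cells with a UMI and a level of up to 0.202 CPM. The selected cells thus hold no check of the genotype labels.

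**Figure D1:**
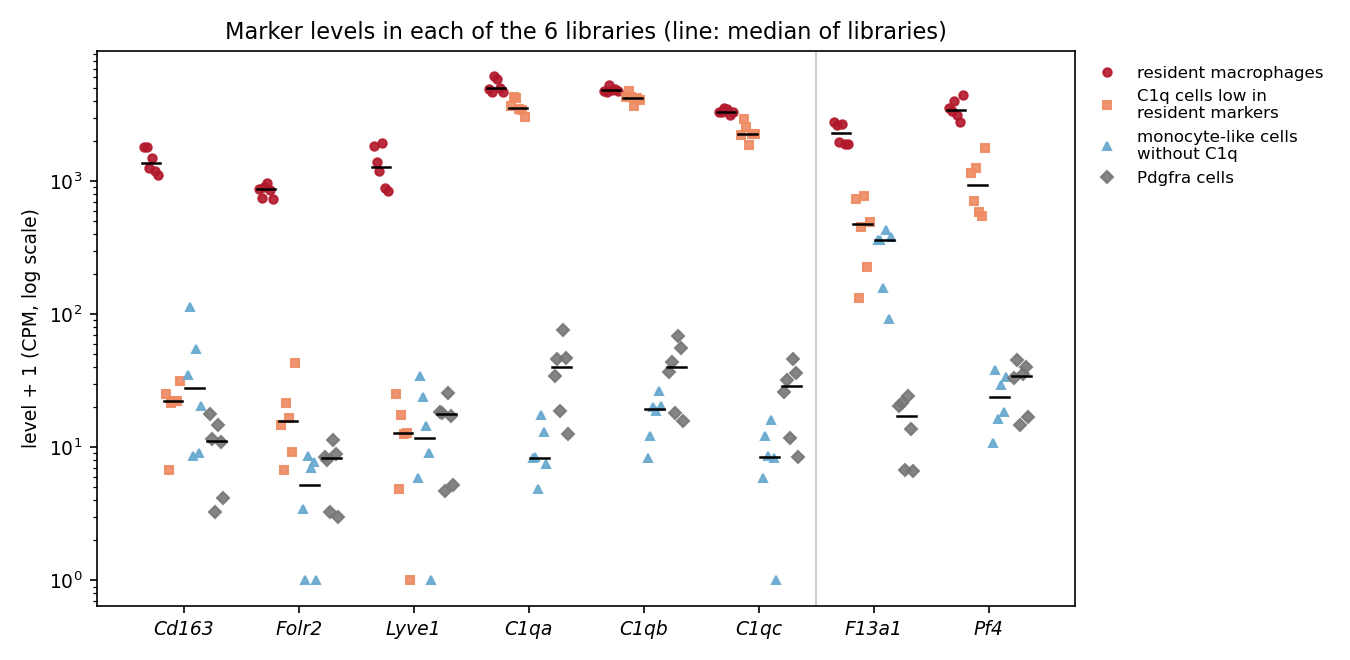
Level of 8 genes (CPM plus 1, log scale) in each of the 6 libraries, in resident macrophages, C1q cells low in resident markers, monocyte-like cells without C1q and Pdgfra-positive cells; each point is 1 library and each black line the median of libraries. The 6 genes left of the grey line chose the cells and separate the classes by construction; F13a1 and Pf4, on the right, were not used, and the resident macrophages of every library lie above the other classes for both.

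RefSeq promoter windows of GRCm38.p6, from 250 bases before to 50 after a transcript start, were found for 6 of the 8 genes above. Those of the 2 receptors found, and of the 2 marker genes not used in the choice, are printed because these genes were abundant in the same cells. Capitals mark the PU.1 core GAGGAA and the Maf half-site TGCTGA, searched on both strands (reverse complements TTCCTC and TCAGCA); PU.1 and Maf proteins are transcription factors of the macrophage lineage.

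Cd163 (chr6:124304401-124304700, plus strand): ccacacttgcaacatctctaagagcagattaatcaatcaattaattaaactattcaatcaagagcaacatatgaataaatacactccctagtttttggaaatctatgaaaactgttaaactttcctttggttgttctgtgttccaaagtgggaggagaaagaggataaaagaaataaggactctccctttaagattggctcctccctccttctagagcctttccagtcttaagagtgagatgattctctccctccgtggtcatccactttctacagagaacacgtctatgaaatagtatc
Folr2, first start site (chr7:101857141-101857440, minus strand): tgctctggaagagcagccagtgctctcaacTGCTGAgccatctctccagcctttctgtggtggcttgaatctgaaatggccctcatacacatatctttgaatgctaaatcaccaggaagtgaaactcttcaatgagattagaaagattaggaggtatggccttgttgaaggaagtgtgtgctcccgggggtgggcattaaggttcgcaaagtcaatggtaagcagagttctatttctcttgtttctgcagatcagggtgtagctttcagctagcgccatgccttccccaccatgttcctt
Folr2, other start site (chr7:101845282-101845581, minus strand): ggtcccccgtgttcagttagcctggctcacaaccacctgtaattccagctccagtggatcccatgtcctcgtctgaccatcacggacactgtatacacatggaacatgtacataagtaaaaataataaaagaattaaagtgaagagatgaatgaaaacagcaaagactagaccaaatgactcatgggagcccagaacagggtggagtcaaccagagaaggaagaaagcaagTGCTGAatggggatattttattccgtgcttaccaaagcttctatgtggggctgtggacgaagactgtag
F13a1, first start site (chr13:37050195-37050494, minus strand): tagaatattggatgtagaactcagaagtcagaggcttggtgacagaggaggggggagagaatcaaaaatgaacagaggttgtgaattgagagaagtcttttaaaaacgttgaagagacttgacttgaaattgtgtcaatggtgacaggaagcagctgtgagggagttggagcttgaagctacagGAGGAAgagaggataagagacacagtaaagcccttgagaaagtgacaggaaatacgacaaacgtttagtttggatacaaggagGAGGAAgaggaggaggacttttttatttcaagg
Pf4 (chr5:90772185-90772484, plus strand): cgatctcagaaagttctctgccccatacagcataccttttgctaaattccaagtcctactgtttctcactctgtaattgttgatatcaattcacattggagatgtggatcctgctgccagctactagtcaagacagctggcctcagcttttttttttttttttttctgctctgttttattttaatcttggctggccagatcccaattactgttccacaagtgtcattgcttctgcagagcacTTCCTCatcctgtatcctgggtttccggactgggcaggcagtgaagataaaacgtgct

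Both Folr2 windows held 1 Maf half-site each and no PU.1 core. The printed F13a1 window held 2 PU.1 cores and that of Pf4 held 1. Neither motif was found in the Cd163 window. Such short motifs are common: of 32851 RefSeq promoter windows of the same length, 19.5% held the Maf half-site and 28.3% the PU.1 core. A match describes letters and is not evidence of binding.

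Markers of most other cell types were low. The smooth muscle markers, Pdgfra and Pecam1 were limited by the choice of cells, so their low levels are no separate result. The pan-macrophage list (Adgre1, Csf1r, Cd68, Mertk and Fcgr1) summed to 2946 CPM in resident macrophages and 111 CPM in all kept cells that were not C1q-positive. Lymphatic endothelial cells, the other vascular cells that carry Lyve1, left 34.4 CPM of their 4 markers (Prox1, Mmrn1, Ccl21a and Flt4). This sum ran from 14.4 to 42.8 CPM by library, and was 359 CPM in kept cells that were not C1q-positive. T cell markers summed to 5.38 CPM and monocyte markers (Ccr2, Ly6c2, Plac8 and Chil3) to 46.0 CPM. Dendritic cell markers summed to 81.8 CPM, of which Cd209a made up 76.7 CPM. They stood at 18.7 CPM in C1q cells low in resident markers and 20.2 CPM in kept cells that were not C1q-positive. In the monocyte-like cells without C1q, described below, they were higher, at 586 CPM. Of 5 alveolar macrophage markers, Ear1 gave 0 UMIs, Fabp1 1, Siglecf 3 and Marco 9, and only Mrc1, which arterial macrophages also express, was abundant. Fibroblast markers, led by Dcn, summed to 735 CPM (259 to 1616 by library, highest in library 5) and smooth muscle markers to 1727 CPM (1178 to 2581). Their part in the results below was not tested.

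The resident macrophages were then compared with C1q cells low in resident markers, their nearest neighbours. A gene was called when, over all libraries together, it reached 50 CPM on either side and differed at least 2 times with 5 CPM added to both sides. It also had to differ in the same direction in each of the 6 libraries, but there by any size, so single libraries can lie under 2 times. Of 3668 genes, 191 (5.21%) were called higher and 112 (3.05%) lower; the median gene differed by 0.03 on the log2 scale. Without library 5 the counts were 176 and 112. These are sizes, not tests, and since Cd163, Folr2 and Lyve1 separated the classes, genes that go with them were bound to differ.

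**Figure D2:**
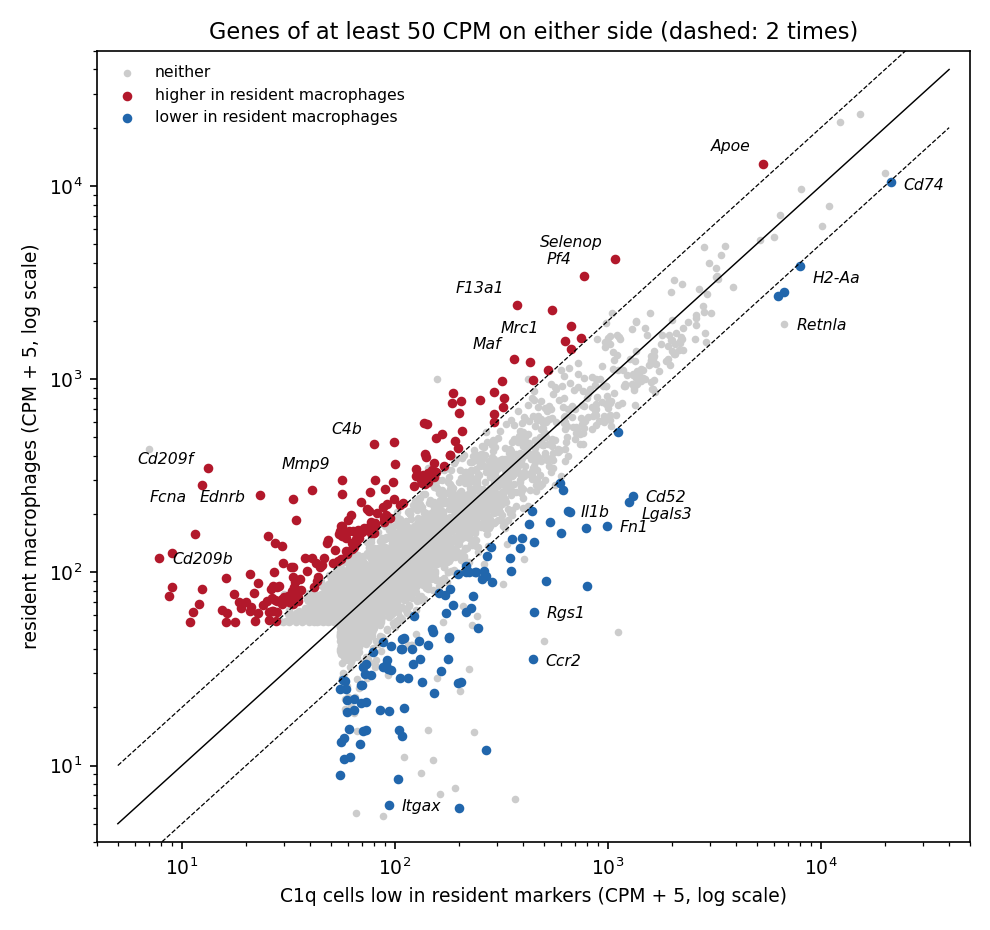
Level of each gene in C1q cells low in resident markers (x axis) and in resident macrophages (y axis), both as CPM plus 5 on log scales, with genes called higher in red, genes called lower in blue and others in grey; dashed lines mark a 2 times difference. F13a1, Pf4 and Selenop lie among the most abundant genes called higher and Cd74 and Retnla lie far to the right below the diagonal, Retnla without a call. The 2 grey points far above the upper dashed line are Igkc and Ighg2b, whose UMIs came mostly from 1 cell of library 2.

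Genes of the resident macrophage program, a list of 27 genes of which 6 had chosen the cells, made up the largest group. Of 19 remaining genes that could be compared, 17 were called higher and none lower, with a median of 2.14 on the log2 scale (0.03 over all genes compared). Its direction was bound to the choice of cells, and it gives no independent support. Mrc1, the mannose receptor, stood at 2195, 2710, 2311, 2200, 1868 and 2649 CPM in libraries 1 to 6 against 704, 383, 770, 705, 394 and 1057 CPM. Selenop, the selenium carrier protein, stood at 3320 to 4885 CPM against 833 to 1428 CPM. Every library of the resident macrophages lay above every library of the other class for both genes.

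The C-type lectins Cd209f, Cd209d and Cd209g and the ficolin Fcna, which bind sugars of microbes, were close to absent from the C1q cells low in resident markers. Cd209f stood at 342 CPM (222 to 484 by library) against 8.22 CPM (3.83 to 13.8), and Fcna at 277 CPM (186 to 377) against 7.37 CPM. Cd209b, outside the list, stood at 114 against 2.84 CPM, a ratio of 15.1 with 5 CPM added. Timd4, the phosphatidylserine receptor that marks macrophages of embryonic origin in several tissues, stood at 65, 94, 87, 81, 73 and 79 CPM against at most 5.31 CPM in any library of the other class. Timd4 was thus low but even, and separated the classes in every library. Gas6, the bridging ligand for efferocytosis, stood at 579 against 136 CPM. Igf1, a growth factor, stood at 295 against 127 CPM and lost its call without library 5 (ratio 1.97). The 2 members of the list not called were Mgl2, a lectin, at 765 against 479 CPM, and Wfdc17 at 628 against 400 CPM.

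Genes close to the summed Cd163, Folr2 and Lyve1 count over 2631 C1q-positive cells thinned to 3000 UMIs were on the higher side of that comparison. Spearman's rho was 0.68 for F13a1, 0.56 for Selenop, 0.50 for Cbr2, 0.48 for Mrc1, 0.46 for Maf and for the Fc receptor Fcgrt, 0.42 for Fcna, 0.41 for Ninj1 and 0.40 for Pf4. The furthest opposite was Cd52, at -0.52. The cells share libraries, so these are descriptions without a test.

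MHC class II was lower. Of 8 genes of its presentation list compared, 7 were called lower and none higher (median -1.21 on the log2 scale): the chains H2-Aa, H2-Ab1 and H2-Eb1, the invariant chain Cd74, the peptide loaders H2-DMa and H2-DMb1, and Ciita, the transcriptional activator of the set. The co-stimulator Cd86 was not called, at 357 against 251 CPM. H2-Aa stood at 3212, 3394, 2754, 4323, 5131 and 2978 CPM in libraries 1 to 6 against 8801, 8586, 6036, 8282, 8068 and 6869 CPM. No library of the resident macrophages reached the lowest library of the other class. The sum of H2-Aa, H2-Ab1, H2-Eb1 and Cd74 was 19795 against 42191 CPM, a ratio of 0.469, with ratios of 0.372, 0.370, 0.420, 0.518, 0.610 and 0.431 by library. Cd74 lay near the limit (ratio 0.493) and lost its call without library 1, 2 or 3 (ratios of 0.508, 0.519 and 0.500).

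Monocyte-derived markers were lower as well. Of 11 genes compared, 7 were called lower and none higher (median -2.51). Ccr2, the receptor that draws monocytes out of the blood, stood at 27.3, 59.7, 12.1, 35.0, 21.2 and 11.8 CPM against 607, 236, 201, 876, 412 and 190 CPM. Cd52 stood at 243 against 1306 CPM, Fn1 (fibronectin) at 170 against 989 CPM and S100a4 at 172 against 423 CPM. S100a6, at 526 against 1115 CPM, lost its call without library 5 (ratio 0.500). Ly6c2 and Plac8, defining genes of classical monocytes looked up after the data were seen, stood at 4.17 against 128 and 9.88 against 230 CPM and were not called. In the other class both stood high in library 5 alone, at 265 and 468 CPM, against at most 1.94 and 25.2 CPM in any other library. Lyz2, at 9628 against 8081 CPM, was not called. Outside the list, Itgax, the integrin CD11c, stood at 1.28 against 89.3 CPM.

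Lipid genes divided. Of 12 genes of the lipid-associated macrophage list, 3 were called higher and 5 lower (median -0.03). The lipoprotein Apoe stood at 13095, 14714, 16761, 11860, 9908 and 14754 CPM against 7476, 6065, 7199, 4965, 4098 and 8490 CPM. The cholesterol exporter Abca1 (315 against 131 CPM) and the fatty acid receptor Cd36 (597 against 286 CPM) were also called higher, but Abca1 lost its call without library 5 (ratio 1.97) and Cd36 without library 1, 5 or 6 (ratios of 1.98, 1.87 and 1.99). The lipase Lpl stood at 85.0 against 506 CPM, the galectin Lgals3 at 225 against 1252 CPM, the fatty acid binder Fabp5 at 21.8 against 193 CPM, Cd9 at 96.6 against 257 CPM and the exporter Abcg1 at 14.5 against 80.5 CPM. The Fabp5 ratio was 0.135 with all libraries and 0.215 without library 5. Trem2, the receptor that names this state, was not called, at 129 against 142 CPM.

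Iron and heme handling was one-sided. Of 12 genes, 5 were called higher and none lower (median 0.73). Hmox1, the enzyme that breaks down heme, stood at 971, 569, 789, 637, 1059 and 896 CPM against 359, 107, 225, 268, 368 and 590 CPM. The iron carrier Trf (transferrin, 976 against 312 CPM) and Cp (ceruloplasmin, 256 against 71.4 CPM) were also higher. So were the receptor Tfrc (80.1 against 23.5 CPM) and the iron exporter Slc40a1 (56.9 against 11.3 CPM). Slc40a1, the least abundant of the 5, fell under 50 CPM without library 2, where its ratio was 4.61. The ferritin chains Ftl1 (7027 against 6413 CPM) and Fth1 (7857 against 10932 CPM) were not called.

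Complement genes other than C1q followed the same side. Of 9 compared, 3 were called higher and none lower (median 0.67). C4b stood at 327, 572, 558, 443, 456 and 433 CPM against 10.4, 30.7, 73.7, 36.9, 113 and 64.7 CPM, so that the classes did not overlap. The C4b ratio was 5.76 with all libraries and 10.3 without library 5. The receptor C5ar1, at 713 against 316 CPM, lost its call without library 5 (ratio 1.88).

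Among 16 chemokines, 4 of the CC family that attract monocytes were called higher and Cxcl16 lower (median 0.14). Ccl7 stood at 1934, 2020, 1862, 1566, 2402 and 1639 CPM against 707, 153, 1052, 588, 772 and 772 CPM. Ccl2 stood at 1577 against 621 CPM, Ccl8 at 770 against 247 CPM and Ccl12 at 655 against 288 CPM. The Ccl8 ratio was 3.07 with all libraries and 7.42 without library 5, and without library 5 the list had 5 of 14 genes higher and 1 lower. Ccl12 lost its call without library 2 (ratio 1.99), as did Cxcl16 (202 against 436 CPM; ratio 0.551). Cxcl2, the most abundant chemokine at 3976 against 2976 CPM, was not called. Of 13 cytokine and NF-kB feedback genes, Il1b (202 against 643 CPM) and its antagonist Il1rn (27.2 against 83.1 CPM) were called lower and none higher (median 0.22). Tnf (282 against 176 CPM) was not called.

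The matrix proteases showed the widest separation between members of a list. Of 11 genes, 1 was called higher and 4 lower (median -1.14). Mmp9, a gelatinase, stood at 288, 454, 348, 216, 246 and 350 CPM against 89.7, 30.7, 81.9, 40.8, 33.1 and 164 CPM. Mmp12, the macrophage elastase, was nearly absent, at 1.01 CPM (0 to 2.67 by library), against 48.3, 684, 156, 99.0, 122 and 72.3 CPM. In the other class Mmp12 was highest in library 2, without which its ratio was 0.0499 in place of 0.0301. Mmp13, Mmp14 and Adam8 were also called lower, at 14.3 against 88.5, 8.94 against 52.5 and 10.0 against 65.8 CPM. Mmp13, at a ratio of 0.206 with all libraries and 0.131 without library 5, lost its call without library 2 (ratio 0.374), and Mmp14 without library 2 or 5 (ratios of 0.288 and 0.268), by falling under 50 CPM.

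Growth factors and receptors differed in both directions. Of 9 growth and trophic factors, 4 were called higher and 2 lower (median 0.75). Bmp2 stood at 203, 187, 198, 138, 154 and 170 CPM against 55.2, 49.8, 119, 62.1, 39.0 and 38.0 CPM, and the EGF family ligand Hbegf at 159 against 56.1 CPM. The semaphorin receptor Nrp1 stood at 283 against 129 CPM, and Nrp2, at 187 against 89.6 CPM, lost its call without library 2, 3 or 5 (lowest ratio 1.87). Pdgfb (38.5 against 82.8 CPM) and Sema4d (10.2 against 67.8 CPM) were lower, Pdgfb not without library 1 or 2 (ratios of 0.519 and 0.555). Of 16 receptors, 4 were called higher and 2 lower (median 0.10). The endothelin receptor Ednrb stood at 303, 283, 271, 274, 157 and 117 CPM against 17.2, 0, 8.19, 38.8, 20.1 and 11.4 CPM. Csf1r, the receptor for the growth factor on which macrophages depend, stood at 1623 against 740 CPM. Csf1r lost its call without library 5 (ratio 1.90), and Ccr1 (156 against 74.0 CPM) without library 1, 2 or 6 (lowest ratio 1.82). The fractalkine receptor Cx3cr1, at 70.5 against 229 CPM, and Tgfbr1, at 77.4 against 176 CPM, were lower, Tgfbr1 not without library 2 (ratio 0.551).

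Uptake receptors were mixed. Of 14 efferocytosis and scavenger genes, 3 were called higher and 2 lower (median 0.13). The collectin Colec12 stood at 107 against 25.0 CPM. The TAM receptor Mertk (222 against 104 CPM) and its ligand Pros1 (124 against 53.9 CPM) lost their calls without library 5 (ratios of 1.83 and 1.82). The related receptor Axl (87.7 against 253 CPM) and the glucan receptor Clec7a (84.5 against 281 CPM) were lower. In the coagulation list, the anticoagulant Thbd was higher (101 against 27.5 CPM) and Anxa2 and Thbs1 lower, among 5 compared (median -1.31). Cd44, another hyaluronan receptor, stood at 177 against 531 CPM and was the only one of 5 hyaluronan and glycan binding genes called (median -0.50). Of 12 Fc and Toll-like receptor genes, Tlr7 was higher (160 against 70.6 CPM) and Fcgr4 lower (41.3 against 174 CPM; median 0.01). The Fcgr4 ratio was 0.259 with all libraries and 0.457 without library 5.

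Among 18 transcription factors compared, 3 were called higher and 1 lower (median 0.61). Maf, which sustains self-renewing macrophages, stood at 1114, 1530, 1256, 1432, 884 and 1183 CPM against 404, 387, 385, 454, 269 and 593 CPM. Tcf4 stood at 436 against 193 CPM. Klf4, at 1430 against 668 CPM, lost its call without library 2 (ratio 1.99). Bhlhe40 stood at 21.9 against 130 CPM. Spi1, which encodes PU.1, was not called (326 against 350 CPM).

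The lysosome list was nearly flat, with 1 of 19 genes called, on the lower side (median 0.37). With all 6 libraries, none was called among 17 immediate early genes, 13 interferon response genes, 5 proliferation genes and 5 Ms4a genes (medians of 0.56, -0.96, -0.69 and 0.60), or for Retnla, the only gene of the alternative activation list compared. Without library 5, 2 of 4 Ms4a genes and 1 of 6 interferon response genes were called higher. Retnla stood at 1925 CPM in resident macrophages and at 9760, 477, 7858, 17770, 4682 and 6470 CPM in libraries 1 to 6 of the other class. It was lower in resident macrophages in 5 of the 6 libraries.

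**Figure D3:**
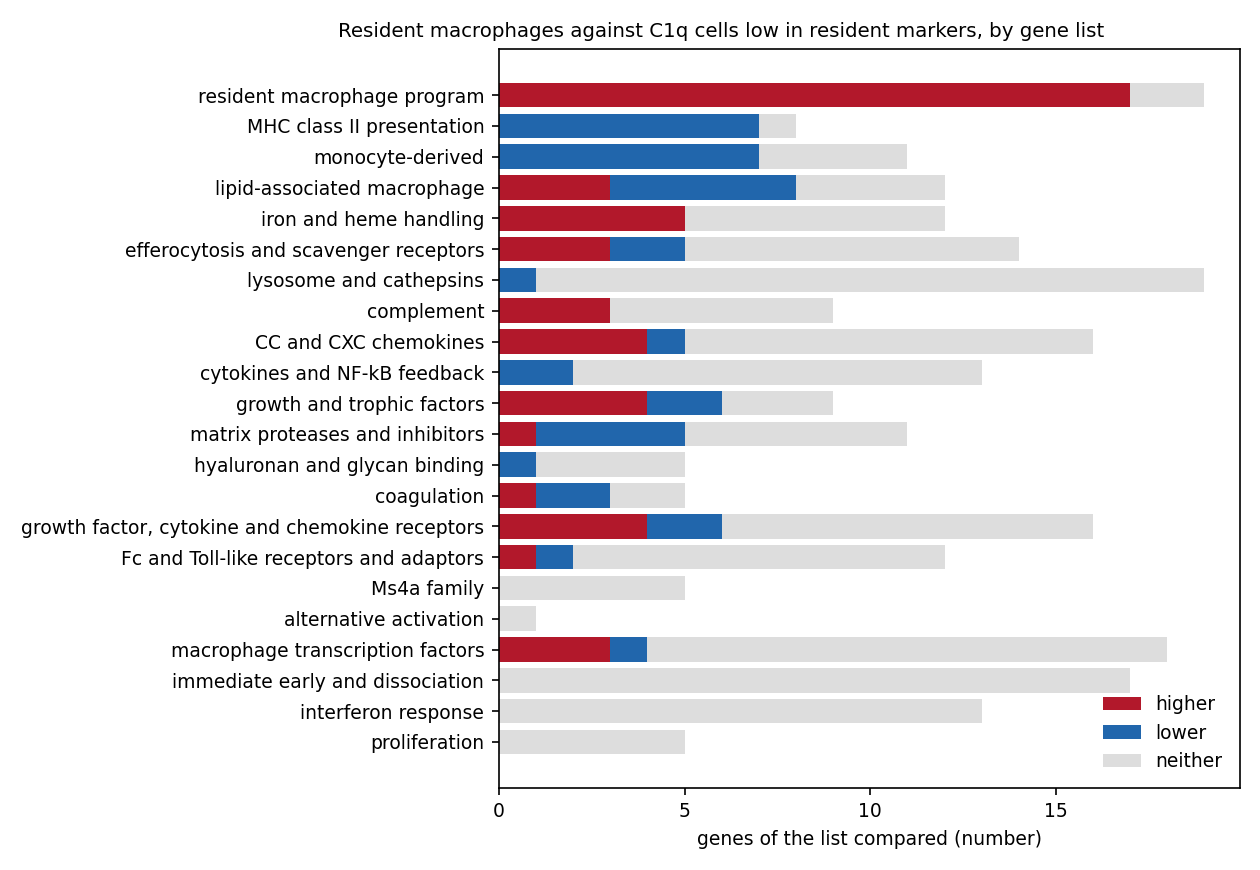
Number of genes of each of 22 lists called higher (red), called lower (blue) or neither (grey) in resident macrophages against C1q cells low in resident markers; bar length is the number of genes compared. The resident macrophage program has 17 of 19 genes higher, the MHC class II list 7 of 8 lower, and 5 lists hold no called gene.

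Beyond the lists, genes with the largest ratios were, after Cd209b, the lectin Siglech (70.5 against 3.69 CPM), Cd209a (76.7 against 7.37 CPM), Fxyd2, a modulator of the sodium pump (261 against 35.7 CPM), the NAD-consuming ectoenzyme Cd38 (148 against 20.4 CPM), Chp2 (88.8 against 11.1 CPM), Plekhg5 (63.8 against 7.09 CPM), Afap1l1 (57.5 against 6.24 CPM), the phospholipase Pla2g2d (181 against 29.2 CPM) and Etv1 (137 against 22.4 CPM). The Pla2g2d ratio was 5.44 with all libraries and 8.4 without library 5. Gpt2, Cmah, Tmod1, Stard8 and Reps2 had ratios from 4.42 to 5.05, and Gpt2 fell under 50 CPM without library 4. On the lower side, after Itgax and AA467197 (3.50 against 98.7 CPM), were Gngt2 (9.28 against 103 CPM), Cytip (22.0 against 198 CPM), the signalling regulator Rgs1 (57.6 against 447 CPM), the survival gene Bcl2a1a (10.3 against 99.8 CPM) and Malt1 (18.7 against 147 CPM). Bcl2a1d, Cd72, Scimp, Tnip3, B4galnt1, Rab11fip1, Cadm1 and Cd226 were also called, with ratios from 0.161 to 0.208. On this side 4 genes fell under 50 CPM without 1 library: AA467197 without library 5 (ratio 0.134), Rab11fip1 without library 4 (0.196), Cadm1 without library 2 (0.206) and Cd226 without library 1 or 4 (0.165 and 0.205).

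Monocyte-like cells without C1q, 382 in number, were the second comparison. They had at most 1 UMI of C1q, at least 4 UMIs of Ccr2, Ly6c2, Plac8 and Chil3, and at least 4 UMIs of Lyz2, Fcer1g and Tyrobp. Library 6 held only 18 of them, so direction was required in the other 5 libraries. This class also carried neutrophil markers (1193 CPM over 4 genes, 3.83 to 8921 by library, against 37.9 CPM in resident macrophages), dendritic cell markers (586 CPM over 5 genes against 81.8 CPM) and epithelial markers (157 CPM over 4 genes against 10.2 CPM), so it is not monocytes alone. Their part in the calls of this comparison was not tested. Of 3893 genes, 587 (15.1%) were called higher and 397 (10.2%) lower in resident macrophages.

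The largest ratios were those of Pf4 (3392 against 20.9 CPM), the scavenger receptor Stab1 (750 against 8.29 CPM), Ccl8 (770 against 9.21 CPM), Ccl12 (655 against 7.98 CPM), Ms4a7 (415 against 3.68 CPM), Cd209f (342 against 3.07 CPM), C3ar1 (729 against 14.4 CPM) and Fxyd2 (261 against 3.07 CPM). The Ccl12 ratio was 50.8 with all libraries and 83.9 without library 5. Ms4a7 and C3ar1 thus stood apart from monocyte-like cells but were not called against the other C1q class, where they were at 406 and 415 CPM. On the lower side were Napsa (3.03 against 396 CPM), Cytip (22.0 against 832 CPM), Ear2 (6.99 against 350 CPM), Klrk1 (1.68 against 140 CPM), Klrd1 (0.807 against 115 CPM), Cd24a (8.27 against 266 CPM), P2ry10 (1.61 against 121 CPM) and Itgax (1.28 against 108 CPM). Lysosomal genes, nearly flat within C1q-positive cells, were called higher in 12 of 19 cases and lower in none (median 1.31), and without library 5 higher in 10 and lower in 1. The difference between these comparisons was not tested, and both use the same resident macrophages.

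The resident macrophages were not uniform. After thinning, 58.0% of 2118 cells held UMIs of all 3 receptors, 12.2% lacked Cd163 alone, 10.5% lacked Folr2 alone and 8.64% lacked Lyve1 alone. Across the selected cells Folr2 and Lyve1 varied together (Spearman's rho 0.39) and Lyve1 with F13a1 (0.49), while Cd163 and Folr2 hardly did (0.03). The cells were chosen on the sum of the 3 receptors and share 6 libraries, so these values are descriptions. The value was 0.93 for H2-Aa with Cd74 and -0.24 for Lyve1 with H2-Aa.

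MHC class II spanned a wide range between cells. The summed count of H2-Aa, H2-Ab1, H2-Eb1 and Cd74 had a median of 38 UMIs (5th to 95th percentile 0 to 176), and 23.5% of cells had at most 5. Median counts were 28.5, 20, 20, 56, 62 and 28 UMIs in libraries 1 to 6. Libraries 4 and 5 lay above the other 4 by this measure.

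The cells were divided by Lyve1 after thinning, into 1495 with at least 2 UMIs and 370 with none (253 with 1 were left out). Of 3567 genes, 34 (0.953%) were called higher and 31 (0.869%) lower in cells with Lyve1, by the same rule. The split chose the cells on Lyve1, and genes near it again were bound to follow. Fcna stood at 443, 325, 443, 343, 398 and 269 CPM in libraries 1 to 6 with Lyve1 and at 54.4, 17.5, 37.0, 27.0, 51.6 and 32.8 CPM without. Ednrb stood at 321 against 38.7 CPM, the complement receptor Vsig4 at 61.3 against 10.8 CPM, Fgfr1 at 253 against 72.1 CPM, Colec12 at 128 against 36.9 CPM and Timd4 at 98.1 against 36.9 CPM. Gpt2, Tppp3 and Plekhg5 had ratios from 2.94 to 3.16. F13a1 was called too, at 2812 against 1356 CPM, whereas Cd163 and Pf4 differed little, at 1610 against 1233 and 3522 against 2832 CPM.

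Of 7 monocyte-derived genes compared, Ccr2 and Cd52 were called lower in cells with Lyve1 and S100a4 higher (median -0.69). Cd52 stood at 158 CPM with Lyve1 and 439 without it, and S100a4 at 190 and 66.7 CPM. Ccr2 stood at 71.2 CPM without Lyve1 and 13.4 with it, Il1b at 498 and 124 CPM, Lpl at 162 and 50.2 CPM, Glipr1 at 93.7 and 22.1 CPM, Cxcl10 at 133 and 35.2 CPM and Bcl2a1d at 51.4 and 11.8 CPM, the last not called without library 4 (ratio 0.323). Of 5 proliferation genes, 3 were called lower in cells with Lyve1 and none higher (median -1.23, against 0.02 over all genes compared). Mki67 stood at 34.0, 70.2, 22.2, 67.6, 131 and 82.0 CPM without Lyve1 and at 19.1, 12.4, 7.98, 26.9, 21.1 and 19.2 CPM with it, lower in each library. Top2a (12.0 against 63.1 CPM) and Stmn1 (63.8 against 157 CPM) lost their calls without library 5, Top2a by falling under 50 CPM at a ratio of 0.335 and Stmn1 at a ratio of 0.537, which left 1 of 4 proliferation genes called. Over all 2554 cells, 228 (8.93%) had a UMI of Mki67 or Top2a, from 5.30% in library 3 to 10.9% in library 4.

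MHC class II was lower with Lyve1 in every library, at 16622 against 28027 CPM summed, yet only Ciita of 8 genes of its list was called, and not without library 4 (ratio 0.512). Summed levels with Lyve1 were 14687, 12138, 11990, 20600, 22543 and 12595 CPM in libraries 1 to 6. Without Lyve1 they were 31850, 28392, 25044, 32964, 28079 and 20754 CPM. The difference was smallest in library 5.

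**Figure D4:**
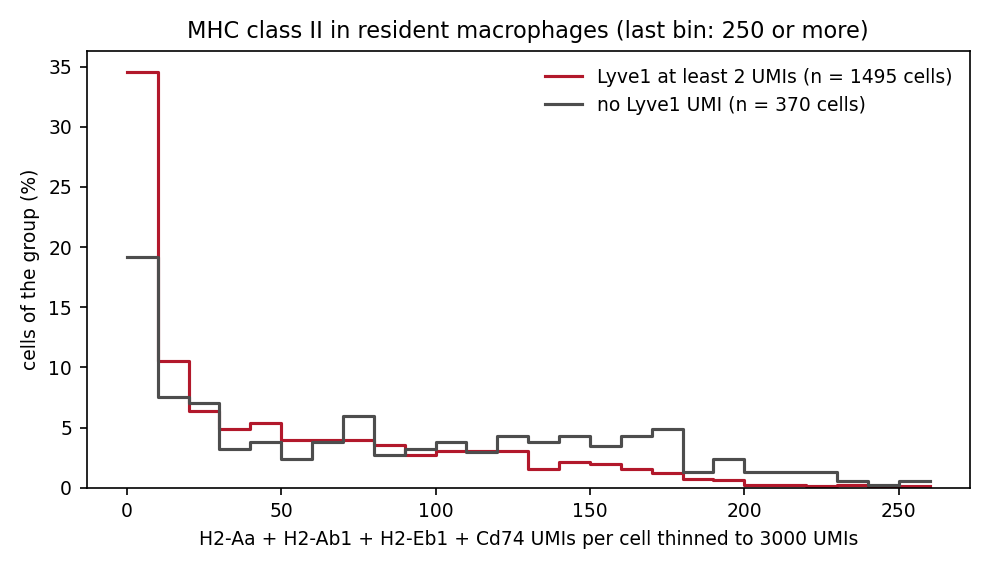
Distribution of MHC class II UMIs (H2-Aa, H2-Ab1, H2-Eb1 and Cd74 summed) per resident macrophage thinned to 3000 UMIs, as percent of cells in bins of 10, for 1495 cells with at least 2 Lyve1 UMIs (red) and 370 with none (dark grey). Both groups span the whole range; the median is 27 UMIs with Lyve1 and 74 without.

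A split by MHC class II itself, chosen after seeing the data, compared 497 thinned cells with at most 5 UMIs and 542 with at least 100. Of 3540 genes, 20 (0.565%) were called higher and 20 (0.565%) lower in the low cells, with the median gene shifted by 0.135 on the log2 scale. MHC transcripts count among the fixed 3000 UMIs of each cell, so all other genes share fewer UMIs in the high cells. Vsig4 (109 against 16.6 CPM), Fcna (469 against 88.0 CPM), Slc40a1 (99.9 against 20.9 CPM), the water channel Aqp1 (134 against 33.8 CPM), Ctla2a (65.7 against 16.6 CPM), Ednrb (319 against 102 CPM), Colec12 (137 against 48.6 CPM) and Cd55 (55.0 against 19.1 CPM) were highest on the low side, Cd55 not called without library 3 (ratio 2.19). The other side held Ciita (1.34 against 82.4 CPM), H2-DMb1 (36.2 against 461 CPM), H2-DMa (54.3 against 565 CPM), Plbd1 (13.4 against 127 CPM), Clec4b1 (11.4 against 97.2 CPM), Slamf7 (29.5 against 155 CPM), Fcgr4 (16.8 against 73.8 CPM) and Slamf8 (13.4 against 56.6 CPM), Slamf8 not called without library 5 (ratio 0.350). The Vsig4 ratio was 5.26 with all libraries and 9.16 without library 5. Cd163 hardly differed, at 1557 against 1445 CPM, and Lyve1 stood at 1899 against 1044 CPM, without reaching 2 times.

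Differences between libraries within the resident macrophages were mostly small. Of 4088 genes with at least 50 UMIs in every library, 269 (6.58%) differed at least 2 times between the highest and the lowest library. The widest were Gm42418 (8.22 times) and Mir6236 (7.44 times), both highest in libraries 2, 3 and 6 and lowest in library 5. In Pdgfra-positive cells Gm42418 also varied widely, from 1429 CPM in library 5 to 8107 CPM in library 2.

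Ccl8, a monocyte chemoattractant, stood at 312, 568, 792, 491, 2187 and 374 CPM in libraries 1 to 6, highest in library 5. In library 5, 57.1% of 552 cells held Ccl8, and its top cell gave 4.82% of the UMIs. Isg15, an interferon-induced ubiquitin-like protein, stood at 38.9, 30.8, 53.9, 51.8, 222 and 119 CPM, high in libraries 5 and 6. In Pdgfra-positive cells Isg15 was highest in library 5 too, at 196 CPM, but in library 6 it was 63.3 CPM. Dcn, a fibroblast proteoglycan, stood at 574, 418, 201, 570, 1349 and 206 CPM, and C3 and Serping1, which fibroblasts also make, were highest in library 5 as well, at 260 and 248 CPM. Dcn in Pdgfra-positive cells was 14956 CPM in library 5, the lowest of the 6. Fabp4, a fat cell and capillary gene, ranged from 86.2 CPM in library 3 to 496 CPM in library 4. The part of free RNA in Dcn, C3, Serping1 and Fabp4 was not tested. The narrowest were Herpud2, Cdc42 and Fkbp8, each within 1.07 times.

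**Figure D5:**
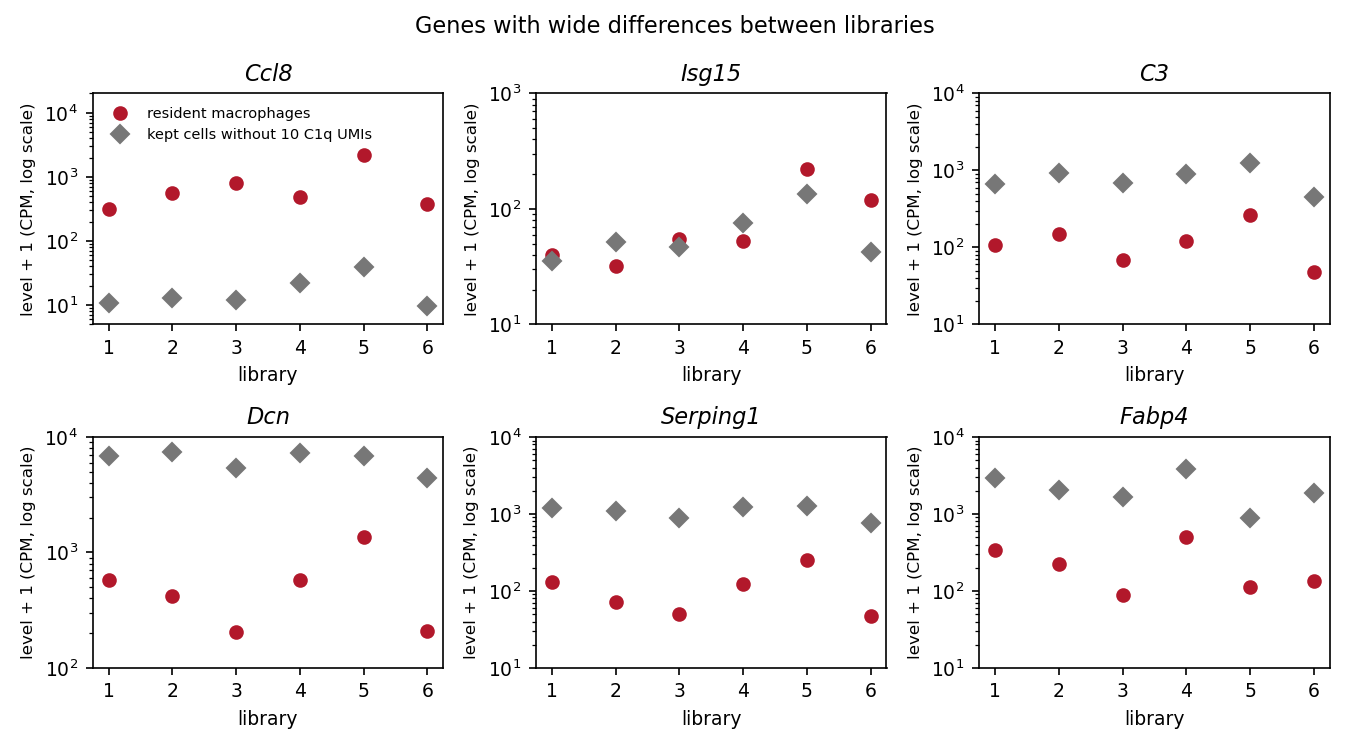
Level of 6 genes with wide differences between libraries (CPM plus 1, log scale) in the resident macrophages (red circles) and other kept cells (grey diamonds) of libraries 1 to 6. The grey class is all kept cells that were not C1q-positive. Its legend reads kept cells without 10 C1q UMIs, but cells with 10 or more that failed the smooth muscle or Pdgfra and Pecam1 limits are in it too. Ccl8 and Isg15 reach 2187 and 222 CPM in library 5, and the fibroblast genes Dcn, C3 and Serping1 are also highest there in the resident macrophages.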

How the data were processed

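Single cells of aortic tissue from 3 Best3FL/FL and 3 Best3SMKO samples were measured with 10x Genomics droplets. The authors deposited 1 combined matrix of raw UMI counts per gene and barcode (60871 barcodes, 55450 genes). Per the file headers it was written by Cell Ranger 6.1.2, while the submitters' processing notes name the build GRCm38, bcl2fastq 5.01, Seurat 3.1.1 and Cell Ranger 3.1.0, without saying what each was used for. The 6 barcode suffixes match no sample label, so no genotypes were compared, no test between groups or classes was made, and no p-value is given.

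From the counts, resident macrophages were selected as the report states. C1q cells low in resident markers passed the same gates with at most 1 UMI of Cd163, Folr2 and Lyve1, and Pdgfra-positive cells had at least 3 UMIs of Pdgfra. UMIs were summed per class and library and scaled to 1000000. A gene was called at a ratio of at least 2 over all libraries together, with 5 CPM added, and at least 50 CPM on either side. One direction, of any size, was required throughout the libraries that held 20 or more cells of both classes. Cells were thinned to 3000 UMIs for shares and for the splits by Lyve1 and MHC class II. Doublets were called with Scrublet in each library (3.02% to 11.3% of kept barcodes) and kept. The rule was tried on simulated data of 55450 genes for the comparison with C1q cells low in resident markers. It found 2% of 1.5-fold increases, 90% of 2.5-fold, 96% of 3-fold and 100% of 4-fold increases, and none of 3151 unchanged genes. Counts were Poisson, with the same assumed noise between libraries for every gene, and no decreases were simulated. These rates do not cover genes called lower, genes that vary more between libraries or genes whose UMIs come from few cells. Intervals are exact at 95% and cover counting error only. The work used scanpy 1.11.5, matplotlib 3.10.9, pandas 2.3.3, scipy 1.17.1 and numpy 2.4.6 under Python 3.11.15.

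The cells, the 22 lists (341 genes) and the 17 marker lists were chosen with earlier results of these data known. Named by rule were the genes of the gate, F13a1, Pf4 and Best3, in each list up to 4 called and 2 uncalled genes of highest level, the 15 largest ratios in each direction outside the lists, the 8 largest in each direction for the other comparisons, the 8 widest and 3 narrowest spreads between libraries, and the 10 nearest genes. Other genes named were chosen after their values were seen. Some genes that the rule names are not reported here. The alternatives tried left out each library in turn, removed called doublets and thinned cells before gating. They also moved the limits on genes detected, mitochondrial UMIs, C1q, and Cd163, Folr2 and Lyve1 together. The thresholds on ratio, level and the MHC class II split were moved too. The limits on smooth muscle UMIs and on Pdgfra and Pecam1 were not varied. Neither were the Lyve1 cut of the split and the minimum number of cells per library.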

Additional observations from a re-analysis of the deposited data

Results flagged for a closer look

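In 7 of 45 values examined over the 6 libraries, the highest or lowest library lay far from the nearest of the others by Dixon's criterion, which chance alone meets in about 1 in 20 groups. That rate does not hold for 11 of the 45, genes picked for their wide or narrow spread between libraries, among them Ccl8, Dcn and Herpud2. The share of resident macrophages among C1q-positive cells was 58.7% in library 5, against 77.8% to 86.0% elsewhere. In library 5, Ccl8 also stood at 2187 CPM and Dcn at 1349 CPM in the resident macrophages, and the proliferation list summed to 1028 CPM, against 505 to 665 CPM in the other libraries. In library 2, the efferocytosis and scavenger list summed to 2118 CPM (1731 to 1841 elsewhere) and the receptor list to 4516 CPM (3723 to 3963 elsewhere). Herpud2 stood at 64.2 CPM in library 6.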

How the results depend on the processing

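Of 190 values of the main results recomputed under an alternative, 150 moved little and 40 moved beyond their margin. Single genes were less stable. Of 86 genes named by rule and called against C1q cells low in resident markers, 50 kept their call in all 16 alternatives. Calls were lost 30 times with 1 library left out and 92 times under other alternatives, and the latter are not listed by gene. The share of kept barcodes was 5.137% with at least 1000 genes, 4.311% with at least 6 UMIs of the 3 receptors, 4.44% with at least 20 UMIs of C1q and 5.236% with gates set after thinning to 2000 UMIs. The share of C1q-positive cells was 79.44%, 69.71% and 79.66% under the first 3 of these. The MHC class II ratio was 0.4583 without called doublets, 0.4594 with at least 6 UMIs of the receptors, 0.4485 with at least 20 of C1q, 0.534 with thinned gates, 0.476 with every cell weighing the same, 0.4528 in cells of 4000 to 12000 UMIs, 0.5084 with up to 3 UMIs in the other class and 0.4521 with every library weighing the same, an alternative chosen after seeing the data. Thinned gates left 117 genes higher against C1q cells low in resident markers. A ratio of at least 3 left 68 higher and 56 lower against those cells, 306 and 192 against monocyte-like cells, 6 and 8 for Lyve1, and 6 and 9 for MHC class II. With genes of at least 20 CPM or UMIs the counts were 52 and 50 for Lyve1, 746 for the spread between libraries and 37 higher for MHC class II. A split at 20 and 60 MHC class II UMIs left 5 higher. Leaving out 1 library at a time gave 4.287% to 5.224% of kept barcodes, 73.77% to 83.52% of C1q-positive cells and an MHC class II ratio of 0.4381 to 0.4889. No paired analysis was possible because the barcode suffixes carry no sample or replicate number. Low levels, such as those of Timd4 or Ccr2 in single libraries, rest on few UMIs.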

Other observations

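Immunoglobulin transcripts appeared in the resident macrophages of library 2 through 1 cell, and both genes were looked up after the data were seen. Of 13823 Igkc UMIs there, 13747 (99.5%) lay in that 1 cell, and Igkc stood at 33.9 CPM without it. Of 6373 Ighg2b UMIs, 6358 lay in 1 cell. In library 5, airway transcripts were spread over many cells: Scgb1a1 UMIs were found in 328 of 552 resident macrophages, and Bpifa1 UMIs in 261.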
